A study of Mus musculus with 10 samples.

Results

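Potassium channel genes were taken as all genes of the deposited count table whose symbol starts with Kcn, continues in letters and ends in a number. This rule gave 92 of 52636 genes, sorted here into 15 families by the letters of the symbol. Of the 92 genes, 77 encode pore-forming or modifier alpha subunits and 15 encode auxiliary subunits. RNA came from S1BF, the whisker (barrel) area of mouse somatosensory cortex, of C57BL/6 mice at postnatal day 17. Loxp mice (n = 4 libraries) carried Rxratm1Krc/J, a loxP-flanked allele of Rxra (retinoid X receptor alpha, a nuclear receptor), without Cre. Nex-cre was added in Hetero mice (n = 2), labelled Rxra cKO-Het, and in cKO mice (n = 4), labelled Rxra cKO. The loxP-flanked allele was thus present in every group, and the labels name no wild-type group and no group with Nex-cre alone.

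Potassium channels let potassium ions leave or enter the cell through a pore whose selectivity filter is built from a short conserved signature sequence. In cortical neurons, voltage-gated (Kv) channels repolarize the action potential, inward rectifier (Kir) and K2P leak channels set the resting potential, and calcium- or sodium-activated channels shape the pauses between spikes. Glia, blood vessels and choroid plexus carry their own potassium channels, and auxiliary subunits change how the pore-forming subunits are gated or delivered to the membrane. Nex-cre places Cre at the Neurod6 locus and recombines in cortical excitatory neurons, so glia, interneurons and vessels, which also hold members of the family, were not its target.

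The signature of the pore could be read in the coding sequences. The pattern searched was a threonine or serine codon (ACN, TCN, AGT or AGC), any codon, a glycine codon (GGN), a tyrosine or phenylalanine codon (TAT, TAC, TTT or TTC) and a glycine codon, in frame, on the coding strand of the longest coding sequence of each gene. It was found in 77 of 77 alpha subunit genes and in 0 of 15 auxiliary subunit genes, against 572 of 21584 coding genes (2.65%) in GENCODE M21. The 6 stretches below, from 1 abundant member of each of several families and from members described later, show the 15 matched bases in capitals with 15 bases of coding sequence on either side.
Kcnj4: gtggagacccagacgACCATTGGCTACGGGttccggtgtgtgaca
Kcnk1: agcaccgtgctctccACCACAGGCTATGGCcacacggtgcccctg
Kcna1: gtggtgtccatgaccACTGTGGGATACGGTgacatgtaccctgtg
Kcnn3: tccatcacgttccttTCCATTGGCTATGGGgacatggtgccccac
Kcnh3: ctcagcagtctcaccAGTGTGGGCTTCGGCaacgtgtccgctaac
Kcnh8: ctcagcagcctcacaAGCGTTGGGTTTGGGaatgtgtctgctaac
The fourth codon in capitals encodes tyrosine in Kcnj4, Kcnk1, Kcna1 and Kcnn3 and phenylalanine in Kcnh3 and Kcnh8. Phenylalanine stood there in 8 of 8 genes of the EAG group (Kv10 to Kv12), 3 of 4 of the BK and Slack group and 2 of 15 Kir genes, and in none of the Kv1, Kv2, Kv3, Kv4, Kv7, silent Kv or SK and IK genes. The K2P channels, whose name refers to their pair of pore loops, held 2 or more matches in 11 of 14 genes. Leucine at the fourth codon, which the plan had included, was not searched, so a loop with leucine there was not counted. A match is a description of the letters and not a test of function.

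Sequencing depth was 19332990 to 26086337 counts per library, of which the 92 genes took 0.536% (cKO 2) to 0.681% (Loxp 4). Whether libraries came from separate animals is not stated in the labels, and p-values then measure only the spread between these samples, which may be technical. Rxra stood at 21.6 to 31.8 CPM (library-scaled counts, with TMM factors) in Loxp, 23.2 and 26.4 CPM in Hetero and 29.04 to 32.4 CPM in cKO; a count over the whole gene does not isolate the deleted part and so checks no label. Neurod6, the site of the Cre, stood at 55.7 to 66.7 CPM in Loxp 1 to 3, at 34.0 and 34.4 CPM in Hetero and at 22.9 to 38.1 CPM in cKO. The library labelled Loxp 4 had 34.9 CPM of Neurod6, within the range of the Cre groups, so values are also given without it where they rest on it. The 12 excitatory neuron markers were all tested and summed to 5881 to 7126 CPM, with Slc17a7 at 2125 to 2612 CPM and Rorb, a layer marker of sensory cortex, at 43.7 to 80.0 CPM. Hetero 2 stood apart in its choroid plexus markers, and cKO 2 had the lowest oligodendrocyte and Pvalb levels of the 10 libraries. Both are taken up beside the genes they touch.

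Levels of different genes were compared on the deposited FPKM, which is scaled by gene length and library size, as mean ± SD over the 10 libraries. Of the 92 genes, 5 had a mean of at least 50 FPKM, 35 of at least 10 FPKM, 66 of at least 1 FPKM and 77 of at least 0.1 FPKM. Summed over genes, Kir channels held the largest share of the potassium channel FPKM (231.9 FPKM, 19.97%), followed by K2P (142.6 FPKM), EAG (128.8 FPKM), Kv3 (113.4 FPKM), silent Kv (105.5 FPKM) and KChIP (100.2 FPKM). Kv beta subunits summed to 98.3 FPKM, Kv1 to 63.8 FPKM, Kv7 to 59.2 FPKM, BK and Slack to 42.8 FPKM and Kv4 to 23.3 FPKM. SK and IK channels summed to 12.9 FPKM, BK beta subunits to 4.13 FPKM and KCNE subunits to 0.834 FPKM. These are RNA levels of tissue that mixes cell types.

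**Figure D1:**
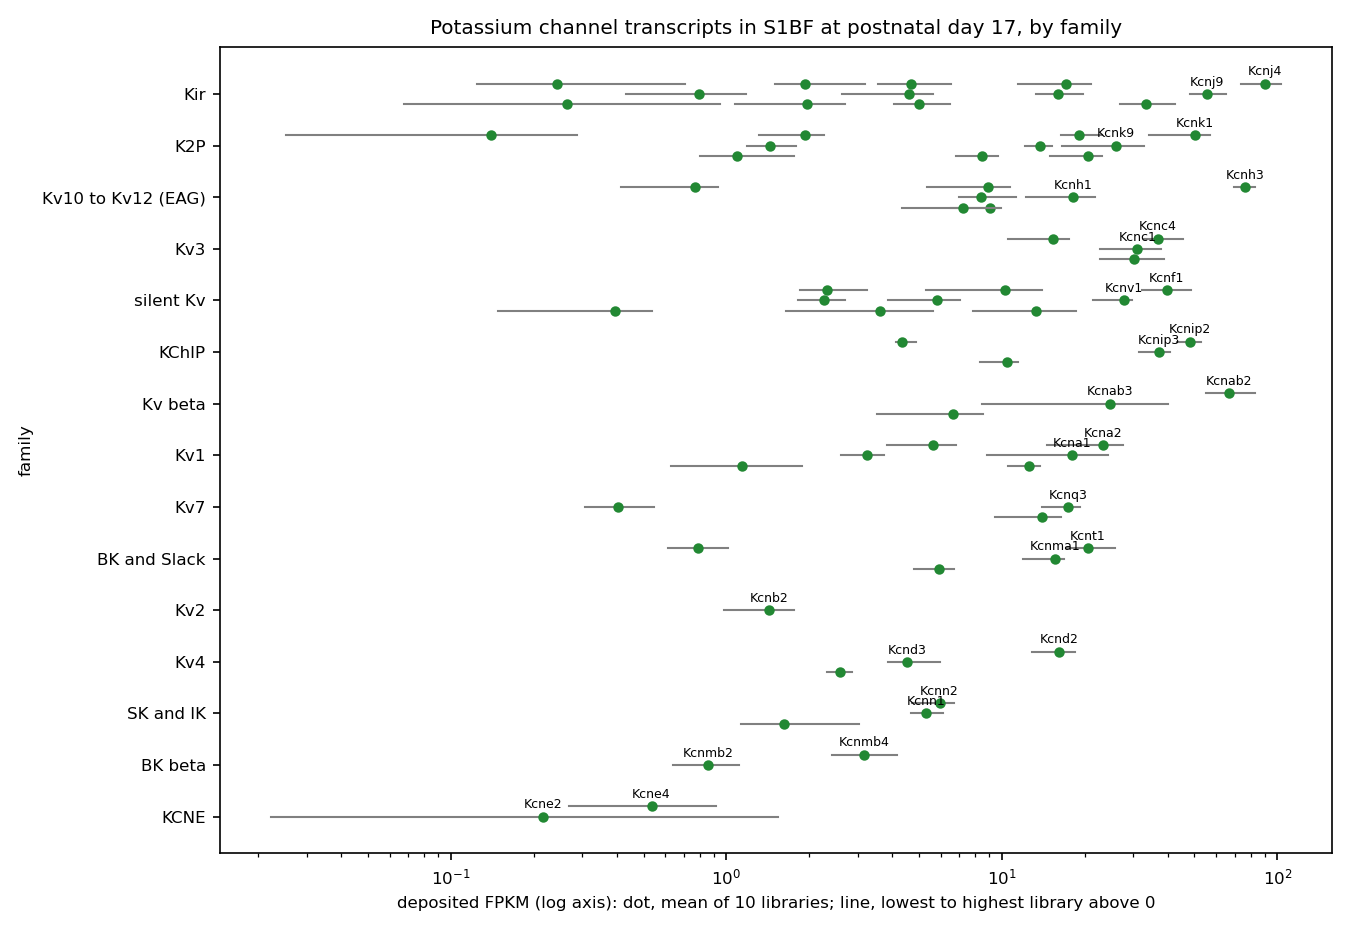
Deposited FPKM of 74 of the 77 potassium channel genes with a mean of at least 0.1 FPKM, by family, on a log axis. Dots are means of 10 libraries, lines run from the lowest to the highest library above 0, and up to 2 of the highest genes of each family are named. Kcnj4 and Kcnh3 lie farthest right, and Kcnk5 (0.140 FPKM) and Kcne2 (0.216 FPKM) farthest left.

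Among voltage-gated alpha subunits, Kcnh3, an EAG-group subunit of forebrain neurons, was highest at 76.3 ± 4.98 FPKM. Its relative Kcnh1 stood at 18.2 ± 2.81 FPKM. Of the Kv3 subunits, which allow fast spiking, Kcnc4 had 36.9 ± 3.48 FPKM, Kcnc1 31.0 ± 5.54 FPKM and Kcnc2 15.4 ± 1.99 FPKM. Kcnb2, a delayed rectifier subunit, had 1.43 ± 0.238 FPKM. The axonal Kv1 subunits Kcna2 and Kcna1 had 23.2 ± 4.24 and 18.0 ± 4.86 FPKM. The M-current subunit Kcnq3 had 17.4 ± 1.52 FPKM. Kcnd2, which carries the dendritic A-type current, had 16.2 ± 1.43 FPKM against 4.54 ± 0.562 FPKM for Kcnd3.

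Silent Kv subunits form no channel alone and modify Kv2 channels. Kcnf1 led them with 39.8 ± 5.14 FPKM, and Kcnv1 followed with 27.8 ± 2.66 FPKM. Among channels opened by calcium or sodium, Kcnt1 (the sodium-activated Slack) had 20.5 ± 2.89 FPKM, Kcnma1 (the BK pore) 15.6 ± 1.57 FPKM, Kcnn2 5.94 ± 0.567 FPKM and Kcnn1 5.30 ± 0.468 FPKM; the latter pair encode SK channels.

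Inward rectifiers included the most abundant gene of all 92, Kcnj4, at 90.4 ± 9.60 FPKM. Kcnj9, a subunit of G protein-gated channels, had 55.6 ± 4.60 FPKM. Kcnj10, the chief potassium-buffering channel of astrocytes, had 33.4 ± 4.66 FPKM, and its partner subunit Kcnj16 had 5.0 ± 0.761 FPKM. Kcnj8, a marker of pericytes, had 1.92 ± 0.514 FPKM. Kcnj9 and Kcnj10 are neighbours on chromosome 1, 11.89 kb apart on opposite strands (GENCODE M21, GRCm38). Among leak channels Kcnk1 had 50.2 ± 6.40 FPKM, the acid-sensitive Kcnk9 25.9 ± 4.61 FPKM, and Kcnk13, known from microglia, 1.93 ± 0.301 FPKM.

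Of the auxiliary subunits the highest was Kcnab2, a cytoplasmic Kv beta subunit, below the pore genes Kcnj4 and Kcnh3. It had 66.9 ± 9.18 FPKM, and Kcnab3 had 24.8 ± 9.41 FPKM. Of the calcium-binding KChIP subunits of Kv4 channels, Kcnip2 had 48.2 ± 3.24 FPKM and Kcnip3 37.2 ± 2.87 FPKM. The BK beta subunits Kcnmb4 and Kcnmb2 stood at 3.17 ± 0.529 and 0.861 ± 0.161 FPKM. Kcne4 had 0.535 ± 0.162 FPKM and Kcne2 0.216 ± 0.468 FPKM, an SD over 2 times its mean.

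In the order of the 30 most abundant genes, few neighbours were separated by more than their spread. Kcnh3 stood above the next gene, Kcnab2, in 10 of 10 libraries, the only 1 of 29 steps with that outcome. The higher gene was above the next in 8 or 9 libraries at 10 steps and in at most 7 libraries at the other 18 steps. Kcnj4 was above Kcnh3 in 8 of 10 libraries. The exceptions were Loxp 2 (73.7 against 74.9 FPKM) and cKO 2 (81.1 against 81.6 FPKM). In these libraries the 8 striatal neuron markers had their lowest sums, 259.9 and 241.5 CPM, against 473.2 to 1046 CPM elsewhere. The part of striatal tissue in the Kcnj4 level was not tested.

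At the low end, 14 of the 92 genes did not pass the low-count filter and were not tested, with 0 to 86 counts over all libraries. These were Kcne2 (86 counts), Kcnj15 (40), Kcnn4 (32), Kcne3 (25), Kcnk16 and Kcnv2 (18 each), Kcne1 (17), Kcnk15 (16), Kcna10 (15), Kcnk7 (14), Kcnk18 (11), Kcna7 (4), Kcnmb3 (3) and Kcnj1 (0). Kcnj1, the renal channel, had no count in any library, which allows up to 3 counts per library, or 0.115 to 0.155 CPM, for counting error only. The highest value of Kcne2 came from a single library and is described further on.

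Comparing cKO with Loxp sets mice with Nex-cre and Rxra deleted in excitatory neurons against mice without Cre. The deletion and the Nex-cre allele differ together, and without a group of Nex-cre alone they cannot be told apart. With edgeR's quasi-likelihood test, adjusted over all genes, 0 of the 78 tested genes were called, as were 0.0% of the 18455 genes tested; DESeq2 and limma-voom also called 0 of the potassium channel genes. At an unadjusted p under 0.05 edgeR had 2 of 78 (2.56%, against 2.53% of all genes), DESeq2 3 of 91 and limma-voom 1 of 78. For DESeq2 and limma-voom the share of all genes at that threshold was not counted, here and in the comparisons below. The median log2 fold change was −0.01 over the 78 genes and 0.00 over all genes, with 38 genes higher in cKO (48.7%, against 50.1% of all genes) and 40 lower. Of the 78, 63 lay within 0.2 of 0 on the log2 scale. For the 35 genes with at least 10 FPKM, fold changes ran from −0.26 (Kcns1, at −0.09 without cKO 2) to 0.25 (Kcnk9), and the 95% interval lay within 0.5 of 0 on the log2 scale for 30 of them. By family, the median log2 fold change lay between −0.05 and 0.03 in 12 of the 15 families. The others were SK and IK at 0.08 (3 tested genes), BK beta at −0.12 (3 tested genes) and KCNE at −0.29, which is its 1 tested gene, Kcne4. Without the library labelled Loxp 4 the median log2 fold change was 0.03 over the 78 genes and 0.01 over all genes, with 0 of the 78 called.

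**Figure D2:**
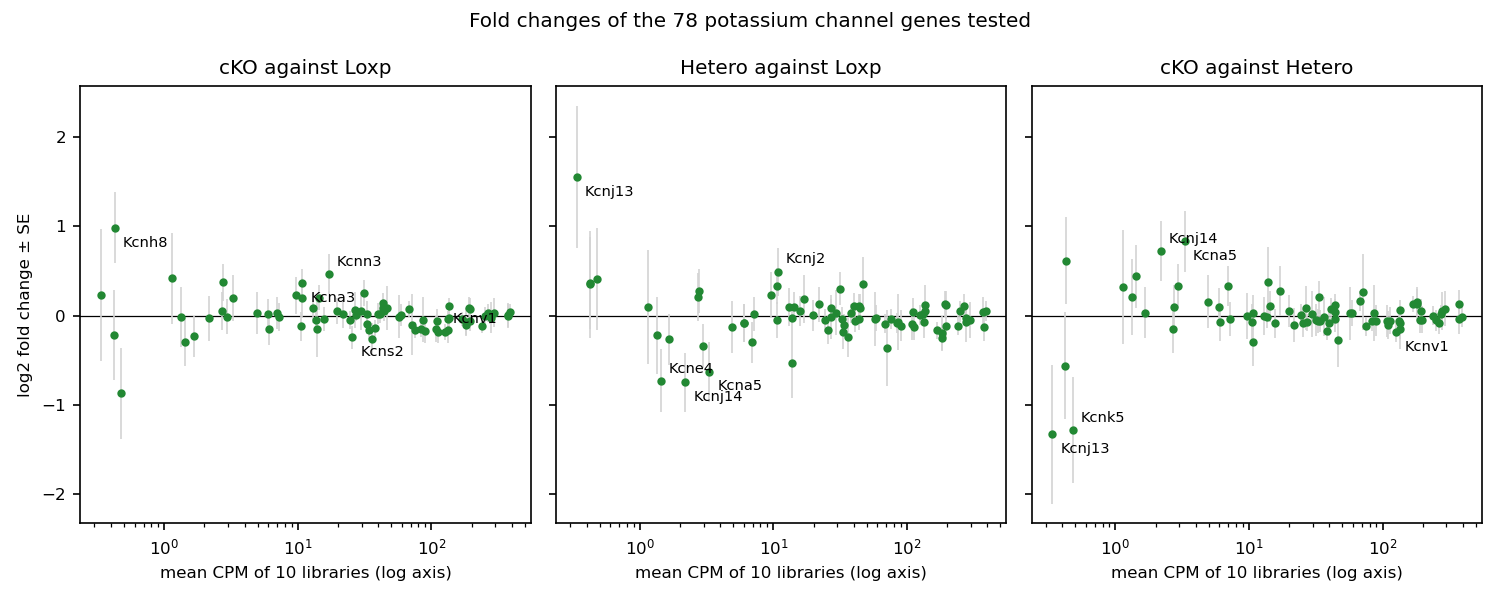
Log2 fold change ± SE of the 78 tested potassium channel genes in each comparison, against their mean CPM over 10 libraries on a log axis. The 5 genes with the smallest p are named in each panel. Above 10 CPM most points lie near 0, and the points farthest from 0, such as Kcnh8 (0.98) and Kcnj13 (1.55), are genes under 1 CPM. Kcnh8 passed the low-count filter only with its cKO libraries, and Kcnj13 only with 1 Loxp and 1 Hetero library.

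The smallest p in cKO against Loxp belonged to Kcnh8 (ENSMUSG00000035580, chromosome 17, 52602709 to 52979194, plus strand), an EAG-group subunit of very low level. Loxp 1 to 4 held 0.241, 0.335, 0.393 and 0.199 CPM, Hetero 1 and 2 held 0.255 and 0.495 CPM, and cKO 1 to 4 held 0.434, 0.777, 0.623 and 0.502 CPM. All 4 cKO libraries lay above all 4 Loxp libraries, on 5 to 18 counts per library. The low-count filter asked for about 0.425 CPM in 2 libraries, which 0 Loxp, 1 Hetero and 4 cKO libraries reached. Kcnh8 was thus tested only because its cKO libraries were high, and its difference supports nothing further. The log2 fold change was 0.98 (SE 0.398, edgeR unadjusted p = 0.028, adjusted p = 0.9998). It was 0.84 without the library labelled Loxp 4.

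Kcnh6, another EAG-group gene, was the only other tested gene of the family whose Loxp and cKO libraries did not overlap. Loxp 1 to 4 held 2.84, 1.48, 2.56 and 2.59 CPM, Hetero 1 and 2 held 2.86 and 2.88 CPM, and cKO 1 to 4 held 3.11, 3.33, 2.88 and 2.97 CPM. The log2 fold change was 0.37 (SE 0.203, edgeR unadjusted p = 0.0902), and 0.21 without Loxp 2, its lowest library. Loxp and cKO thus did not overlap in 2 of 78 genes (2.56%), both higher in cKO, against 1.54% of all genes in either direction and 0.818% in that direction. Since Kcnh8 came in through the filter as described, nothing is read from this count.

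Kcna3, a Kv1 subunit also known from lymphocytes and microglia, had 8.14, 7.37, 11.2 and 10.01 CPM in Loxp 1 to 4, 11.9 and 11.2 CPM in the 2 Hetero libraries, and 12.8, 13.1, 12.9 and 8.53 CPM in cKO 1 to 4. In cKO, libraries 1 to 3 lay above all Loxp libraries and cKO 4 lay among them. Its log2 fold change was 0.36 (SE 0.163, edgeR unadjusted p = 0.0443).

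Kcnn3, an SK channel gene, had 15.7, 13.9, 15.8 and 12.4 CPM in Loxp 1 to 4, 16.5 and 16.4 CPM in the 2 Hetero libraries, and 17.3, 31.8, 18.6 and 11.9 CPM in cKO 1 to 4. A single library, cKO 2, lay far above the rest, and the log2 fold change of 0.46 (SE 0.223) became 0.15 without it. Kcnv1 stood at 132, 134, 134 and 128 CPM in Loxp 1 to 4, 134 and 131 CPM in the 2 Hetero libraries, and 125, 96.7, 131 and 113 CPM in cKO 1 to 4; cKO 3 lay among the Loxp libraries and the other cKO libraries below them. Its log2 fold change was −0.18 (SE 0.0889, edgeR unadjusted p = 0.0608), and −0.10 without cKO 2.

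Other genes named by the smallest p in this comparison had overlapping groups. On the higher side Kcnk9 had a log2 fold change of 0.25 (SE 0.150), becoming 0.12 without Loxp 1. On the lower side the silent Kcns2 was at −0.24 (SE 0.129), Kcna6 at −0.16 (SE 0.0882), the leak channel Kcnk3 at −0.17 (SE 0.0995) and Kcnd2 at −0.15 (SE 0.0895). Each of these 4 moved closer to 0 without cKO 2, to −0.11, −0.11, −0.09 and −0.07. Kcnk5, a leak channel at 2 to 25 counts per library, was at −0.87 (SE 0.510) and at −0.40 without Loxp 3.

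**Figure D3:**
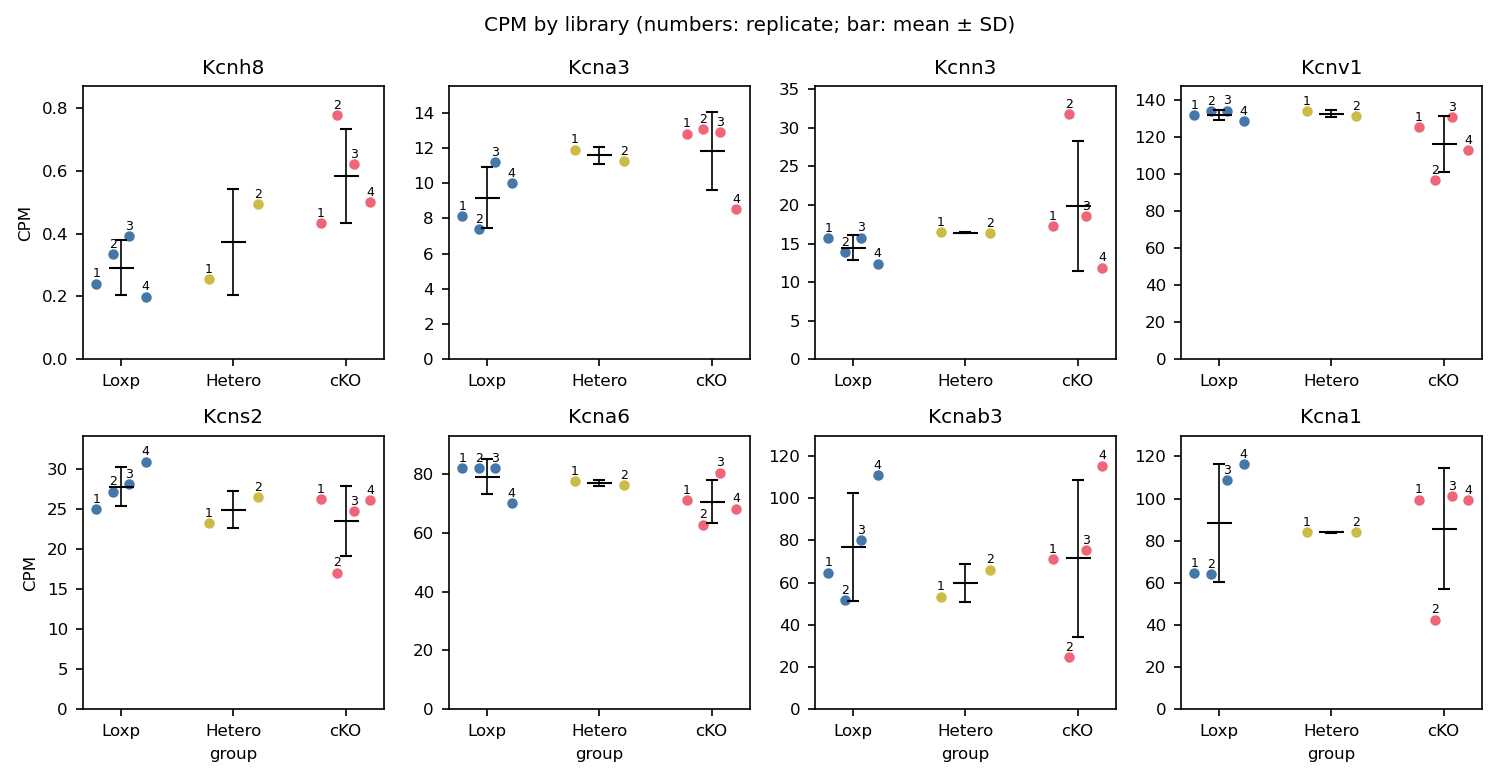
CPM by library of 8 potassium channel genes in Loxp, Hetero and cKO; points carry the replicate number and bars give mean ± SD. In Kcnh8 the cKO points lie above all Loxp points, whereas in Kcnn3, Kcnab3 and Kcna1 the single library cKO 2 lies apart from the other cKO libraries.

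The library cKO 2 had the lowest CPM of the 10 libraries in 31 of the 78 tested genes (39.7%), against 19.1% of all tested genes, and the highest in 15 (19.2%, against 20%). The median of the 78 genes, as log2 difference from each gene's mean, was −0.15 in cKO 2 and −0.06 to 0.12 in the other 9 libraries. By family, cKO 2 was lowest in 3 of 3 Kv beta, 3 of 4 Kv3, 3 of 4 KChIP, 5 of 9 silent Kv and 3 of 6 Kv1 genes. It was also lowest in 4 of 10 K2P, 5 of 13 Kir, 3 of 8 EAG, 1 of 3 Kv4 and 1 of 5 Kv7 genes. In Kv2, BK and Slack, SK and IK, BK beta and KCNE it was lowest in no gene. It was highest in 3 silent Kv, 3 Kir and 2 EAG genes. In Kv3 (Kcnc4), Kv1 (Kcna3), K2P, Kv7, Kv4, SK and IK, and BK beta it was highest in 1 gene each. Kcnab3 had 24.5 CPM in cKO 2 and 51.8 to 115 CPM elsewhere, a 4.71-fold range over the libraries. Kcna1 had 42.5 CPM in cKO 2 and 64.2 to 116 CPM elsewhere. Both genes overlapped between groups, with log2 fold changes in cKO against Loxp of −0.10 (SE 0.339) for Kcnab3 and −0.05 (SE 0.254) for Kcna1. Both turned positive without cKO 2, at 0.18 each, and without the library labelled Loxp 4, at 0.14 and 0.12. Kcna1 was also at 0.07 without Loxp 3, and Kcnab3 was at −0.43 without cKO 4.

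Of the other Kv1 genes, Kcna2 was also lowest in cKO 2, at 175 CPM against 216 to 328 CPM elsewhere. Kcnc1, a Kv3 subunit known from Pvalb interneurons, had 216 CPM in cKO 2 and 231 to 359 CPM elsewhere, and Kcnc2 75.8 CPM against 96.9 to 126 CPM. In the other direction the Kv3 gene Kcnc4 had 167 CPM in cKO 2, and the Kv1 gene Kcna3 had 13.1 CPM. Kcnj8 had 8.21 CPM in cKO 2 and 3.85 to 5.69 CPM elsewhere, and Kcnj16 25.7 CPM against 16.1 to 24.5 CPM. These 4 values were the highest of the 10 libraries.

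Cell type markers differed in the same library. The 12 excitatory neuron markers, of the cells that Nex-cre targets, had a mean log2 difference from their all-library means of −0.29 in cKO 2 and −0.05 to 0.16 elsewhere, and 5 of the 12 were lowest there. Their sum, which Camk2a and Slc17a7 dominate, was 6634 CPM in cKO 2 and so within the range of the other libraries. The 12 astrocyte markers had a mean log2 difference of 0.19 in cKO 2 and −0.12 to 0.10 elsewhere, and 8 of the 12 were highest there. The 12 oligodendrocyte markers summed to 6306 CPM in cKO 2, to 9011 to 10670 CPM in the other cKO libraries, to 8963 to 11440 CPM in Loxp and to 6910 and 10100 CPM in Hetero. The 8 striatal markers summed to 241.5 CPM in cKO 2 and 259.9 CPM in Loxp 2, and to 473.2 to 1046 CPM elsewhere. The 12 inhibitory neuron markers summed to 997.7 CPM in cKO 2, within the range of 956.6 to 1325 CPM over all libraries. Of these, 5 were lowest in cKO 2 (Gad1, Gad2, Pvalb, Npy and Dlx6) and 2 were highest there (Reln and Dlx1). Pvalb stood at 18.1 CPM in cKO 2 and 45.9 to 94.6 CPM elsewhere, and Reln at 129 CPM against 68.5 to 105 CPM. The 12 microglia markers summed to 468.9 CPM in cKO 2 and to 350.6 to 411 CPM elsewhere, and the 12 endothelial and mural markers to 561.3 CPM in cKO 2 and to 383.1 to 586.5 CPM elsewhere. No gene of these lists was at 0 in any library. In bulk tissue, fewer cells of a type and less RNA per cell cannot be told apart, and the part of these markers in the potassium channel values was not tested. Without cKO 2 the median log2 fold change of the 78 genes in cKO against Loxp was 0.02, and again 0 of them were called.

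**Figure D4:**
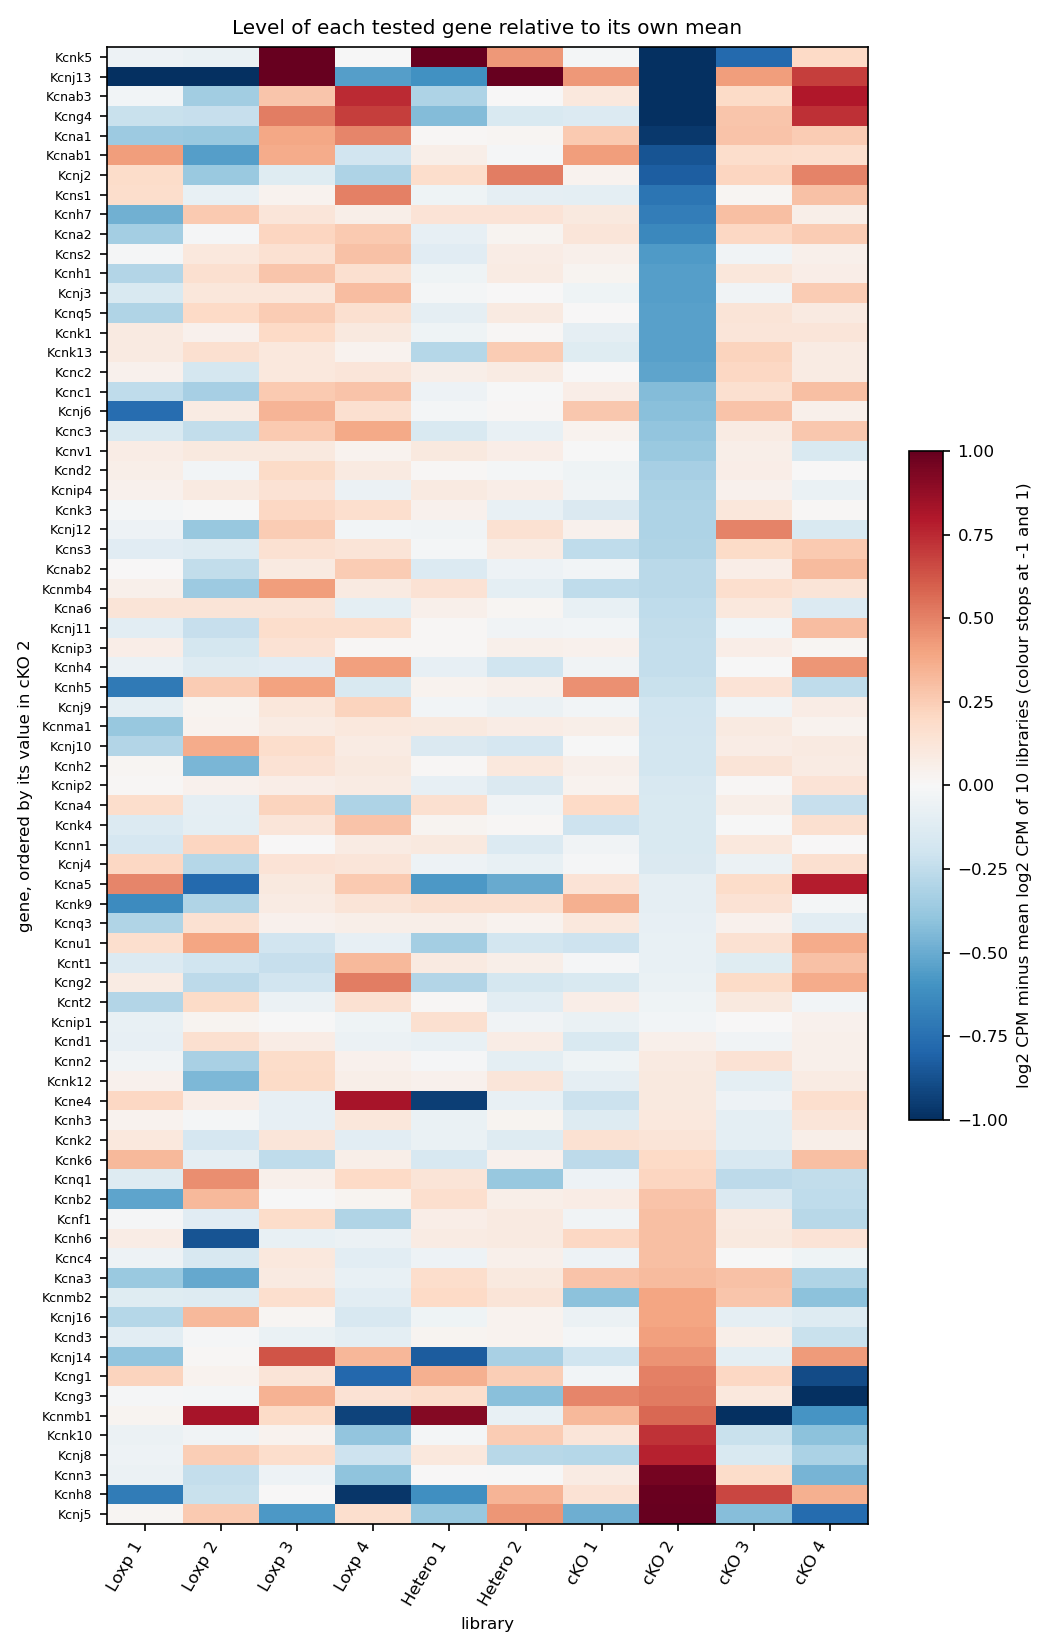
Heat map of 75 of the 78 tested potassium channel genes (rows, ordered by their value in cKO 2) in the 10 libraries (columns), as log2 CPM minus the gene's mean log2 CPM, with colours stopping at -1 and 1. The column of cKO 2 runs from the deepest blue in Kcnk5, Kcnj13, Kcnab3 and Kcng4 to the deepest red in Kcnj5, Kcnh8 and Kcnn3.

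Hetero was compared with Loxp with 2 libraries against 4, for which the smallest exact permutation p is 0.0667. In this comparison too, the deletion and the Nex-cre allele differ together and cannot be told apart. Again 0 of the 78 tested genes were called by edgeR, beside 0.0% of all genes, and DESeq2 and limma-voom called 0 of the potassium channel genes. At an unadjusted p under 0.05 edgeR had 1 of 78 genes (1.28%, against 2.54% of all genes), DESeq2 2 of 91 and limma-voom 0 of 78. The median log2 fold change was −0.03 over the 78 genes and −0.01 over all genes, with 36 higher (46.2%, against 48.2% of all genes) and 42 lower. The groups did not overlap in 8 of 78 genes (10.3%), against 11.4% of all genes. Of the 35 genes with at least 10 FPKM, 27 had a 95% interval within 0.5 of 0 on the log2 scale. Without the library labelled Loxp 4 the median log2 fold change was 0.00 over the 78 genes and over all genes, with 0 of the 78 called.

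Kcnj14, a low-level inward rectifier, had the smallest p. It stood at 1.59, 2.11, 3.22 and 2.63 CPM in Loxp 1 to 4, 1.18 and 1.66 CPM in the 2 Hetero libraries, and 1.81, 2.85, 1.95 and 2.80 CPM in cKO 1 to 4. Hetero 2 lay just above the lowest Loxp library. The log2 fold change was −0.75 (SE 0.336, edgeR unadjusted p = 0.0431).

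The 8 genes without overlap were Kcnip2 and Kcnk1 (lower in Hetero) and Kcna3, Kcnk9, Kcng1, Kcnh6, Kcnd3 and Kcnn3 (higher in Hetero). Kcnip2 had the smallest p of them. In Loxp 1 to 4 it held 169, 173, 176 and 178 CPM, Hetero 1 and 2 held 159 and 152 CPM, and cKO 1 to 4 held 172, 151, 170 and 185 CPM. Both Hetero libraries lay below all Loxp libraries but not below cKO 2, with a log2 fold change of −0.17 (SE 0.0924, edgeR unadjusted p = 0.0965; exact permutation p = 0.0667). Kcnj10 stood at 163 and 161 CPM in Hetero and at 147 to 232 CPM in Loxp, so the groups overlapped. Its log2 fold change was −0.26 (SE 0.147), and −0.15 without Loxp 2. In the same Hetero libraries the 12 astrocyte markers summed to 4990 CPM each, against 4655 to 6042 CPM in Loxp, a sum that Slc1a2 dominates. By fold change 10 of the 12 were lower in Hetero (median −0.10 on the log2 scale, 0 called), and their mean log2 level was −0.12 and −0.11 in the 2 Hetero libraries and −0.06 to 0.10 in Loxp. Other glial markers were also lower in Hetero by fold change. These were 12 of 12 oligodendrocyte markers (median −0.23) and 11 of 12 microglia markers (median −0.16), with 0 called. The mean log2 level of the oligodendrocyte markers was 0.20 in Hetero 1 and −0.35 in Hetero 2. Of the 12 inhibitory neuron markers, 7 were higher and 5 lower. The part of these markers in the Kcnj10 value was not tested.

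The other genes with small p in Hetero against Loxp had larger SEs. The lower ones were Kcne4 at −0.73 (SE 0.352), Kcna5 at −0.63 (SE 0.337) and Kcnu1 at −0.35 (SE 0.246). Kcne4 was at −0.37 without Hetero 1 and at −1.24 without Hetero 2, and without Loxp 2 Kcnu1 was at −0.23. The higher ones were Kcnj2 at 0.49 (SE 0.271), Kcna3 at 0.33 (SE 0.199), Kcnk9 at 0.30 (SE 0.183), Kcng1 at 0.35 (SE 0.302) and Kcnh6 at 0.27 (SE 0.250). Leaving out 1 library brought Kcnj2 to 0.31 (without Hetero 2), Kcnk9 to 0.17 (without Loxp 1), Kcng1 to 0.18 (without the library labelled Loxp 4) and Kcnh6 to 0.11 (without Loxp 2). None of these passed the adjusted threshold in any of these fits.

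Kcne2 and Kcnj13 stood apart in the library Hetero 2. Kcne2 (ENSMUSG00000039672, chromosome 16) encodes an auxiliary subunit and Kcnj13 (ENSMUSG00000079436, chromosome 1) an inward rectifier, and both are known from the apical membrane of choroid plexus epithelium. Kcne2 had 1, 4, 0 and 2 counts in Loxp, 4 and 61 counts in Hetero, and 1, 2, 6 and 5 counts in cKO. Hetero 2 held 61 of the 86 counts, or 2.74 CPM against at most 0.234 CPM in each other library. Kcnj13 had 0.0963, 0.0957, 0.551 and 0.160 CPM in Loxp 1 to 4, 0.153 and 1.21 CPM in the 2 Hetero libraries, and 0.315, 0.0864, 0.312 and 0.376 CPM in cKO 1 to 4. Hetero 2 was again the highest library, with Loxp 3 next.

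Kcne2 was below the low-count filter of the fit above. With no low-count filter edgeR called it in Hetero against Loxp, at 4.18 on the log2 scale (SE 0.716, edgeR adjusted p = 8.16e-05), and in cKO against Hetero, at −3.33 (SE 0.657, edgeR adjusted p = 0.00243). It was also called in Hetero against Loxp without Hetero 1 (5.07, edgeR adjusted p = 0.0361), and it was not tested at all without Hetero 2. In Hetero against Loxp DESeq2 gave 4.25 with an adjusted p of 0.141. In cKO against Hetero it was not called by DESeq2 (−3.38, adjusted p = 1), nor by edgeR without Hetero 1 (−4.22, adjusted p = 0.0922). The authors' deposited table gives Kcne2 a log2 fold change of 4.25 and an adjusted p of 0.0318 in Hetero against Loxp, the only 1 of 90 potassium channel genes under 0.05 there, while 25 of 27904 genes (0.0896%) are under 0.05 in that column. In its cKO column the authors' deposited table has 0 of 90 potassium channel genes and 0.0% of all genes under 0.05. Kcnj13 had a log2 fold change of 1.55 (SE 0.795) in Hetero against Loxp, and −0.58 without Hetero 2. The cutoff of the low-count filter, in 2 libraries, was reached by 1 Loxp library (Loxp 3), 1 Hetero library (Hetero 2) and 0 cKO libraries. Kcnj13 was thus tested only because these libraries were high, and its fold changes support nothing further.

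The choroid plexus markers had their highest levels in the same library. The 10 markers summed to 1162 CPM in Hetero 2, to 233.7 CPM in Hetero 1, to 220.3 to 269.3 CPM in Loxp and to 168.1 to 279.4 CPM in cKO. Outside Hetero 2 nearly all of this sum was Enpp2, at 154.6 to 275.1 CPM, against 413.9 CPM in Hetero 2. No other marker of the list was above 18.5 CPM outside Hetero 2. Ttr, which encodes a carrier of thyroid hormone secreted by that epithelium, had 699 CPM in Hetero 2 and 0.558 to 18.5 CPM elsewhere, and Otx2 and Slc39a4 were at 0 in 3 libraries each. All 8 tested markers of the list were higher in Hetero than in Loxp, and their median log2 fold change was 2.86. Among them, Slc4a5 reached the cutoff of the low-count filter only in Hetero 1, Hetero 2 and cKO 2. Slc4a5 was thus tested only because its Hetero libraries were high. Its part in the median and the counts of the 8 markers supports nothing further. By edgeR 0 of the 8 were called and 7 had an unadjusted p under 0.05, while DESeq2 called 4 of 10 and limma-voom 0 of 8. Their part in the Kcne2 and Kcnj13 values was not tested. Exons of Kcnj13 overlap those of Gigyf2 on the opposite strand, a gene at 77.3 CPM, and the strand used in counting is not given in the sources used here, so reads of both could have been shared.

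**Figure D5:**
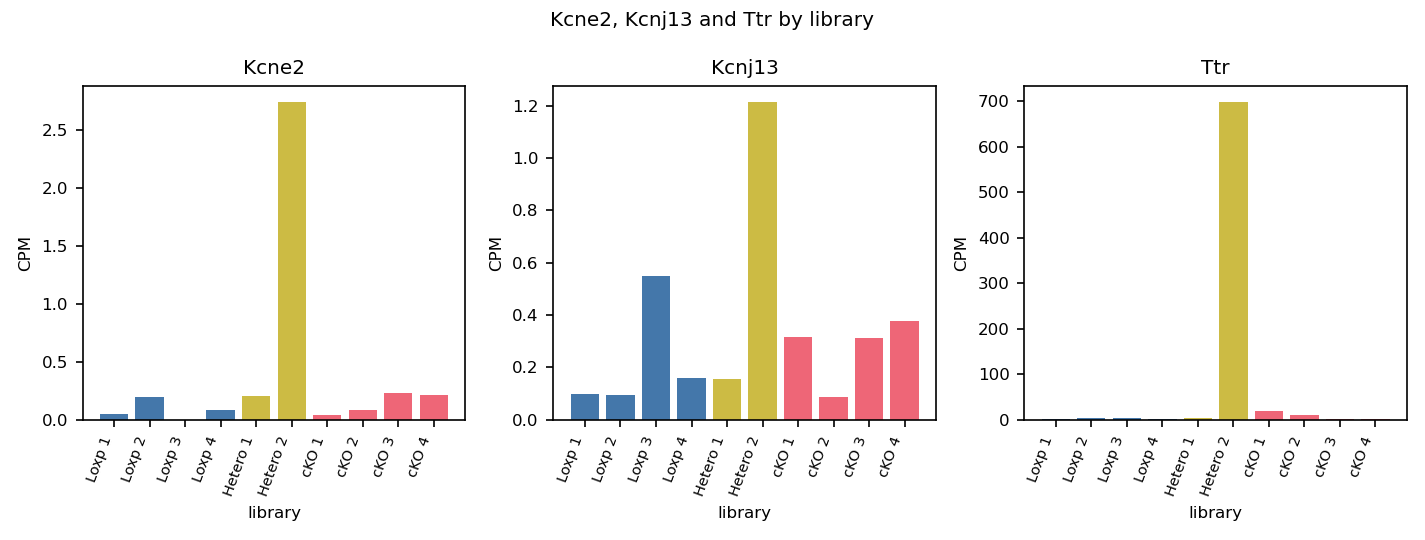
CPM of Kcne2, Kcnj13 and Ttr (a choroid plexus marker) in each of the 10 libraries, as bars from 0, coloured by group. Hetero 2 holds the highest bar in all 3 panels, at 2.74, 1.21 and 699 CPM.

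Promoters were read for Kcne2 and Kcnj13, which were both highest in Hetero 2, and for a motif of the class of the study's receptor. The windows are those of RefSeq (GRCm38.p6), from 250 bases before to 50 bases after a transcription start, of which 67 of the 92 genes had 92. Shown in lower case are a window of Kcne2 (chr16:92292139-92292438, plus strand), one of Kcnj13 (chr1:87394680-87394979, minus strand) and that of Kcnf1 (chr12:17176839-17177138, minus strand), with matches to 4 short motifs in capitals.
Kcne2: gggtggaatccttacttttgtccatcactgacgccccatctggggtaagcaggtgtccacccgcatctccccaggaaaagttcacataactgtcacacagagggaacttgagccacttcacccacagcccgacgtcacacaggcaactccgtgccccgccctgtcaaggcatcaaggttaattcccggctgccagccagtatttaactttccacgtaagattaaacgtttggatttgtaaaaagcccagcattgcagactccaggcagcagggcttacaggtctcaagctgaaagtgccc
Kcnj13: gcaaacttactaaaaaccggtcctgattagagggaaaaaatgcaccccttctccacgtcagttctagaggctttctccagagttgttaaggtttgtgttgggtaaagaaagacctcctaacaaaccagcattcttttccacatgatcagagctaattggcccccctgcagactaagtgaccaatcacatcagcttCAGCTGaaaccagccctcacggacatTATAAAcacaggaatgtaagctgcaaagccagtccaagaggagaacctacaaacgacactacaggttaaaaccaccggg
Kcnf1: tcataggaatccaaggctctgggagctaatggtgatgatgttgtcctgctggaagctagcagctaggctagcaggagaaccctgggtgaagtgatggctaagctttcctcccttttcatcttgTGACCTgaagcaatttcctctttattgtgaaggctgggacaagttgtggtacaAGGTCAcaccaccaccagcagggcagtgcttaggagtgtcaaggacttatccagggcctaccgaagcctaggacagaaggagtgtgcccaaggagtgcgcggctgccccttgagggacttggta
The motifs, searched on both strands, were AGGTCA (the half-site of nuclear receptors, the class to which RXR belongs), TAATCC (the core bound by Otx factors), CAGCTG (an E-box) and TATAAA. The Kcnf1 window held AGGTCA on both strands, the Kcnj13 window held CAGCTG and TATAAA, and the Kcne2 window held none of the 4. Over the 92 windows AGGTCA occurred in 6 (6.52%), in Kcna10, Kcnf1, Kcnh1, Kcnip4, Kcnj16 and Kcnk10, against 16.3% of all 32851 windows. CAGCTG occurred in 25.0% of the family's windows and 16.3% of all, TATAAA in 5.43% and 13.6%, and TAATCC in 2.17% and 7.06%. Windows of 1 gene can overlap, and a match is a description of these letters, not a binding site. Kcnf1, the most abundant gene with AGGTCA in its window, had 189, 176, 216 and 155 CPM in Loxp 1 to 4, 199 and 203 CPM in the 2 Hetero libraries, and 185, 234, 202 and 157 CPM in cKO 1 to 4. The 3 groups overlapped.

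The third comparison, cKO with Hetero, sets the full against the heterozygous deletion with Nex-cre in both groups, and it shares libraries with both others. Here too edgeR, DESeq2 and limma-voom called 0 of the potassium channel genes (edgeR called 0.0% of all genes). At an unadjusted p under 0.05 edgeR had 1 of 78 (1.28%, against 1.74% of all genes), DESeq2 3 of 91 and limma-voom 1 of 78. The median log2 fold change was −0.00 over the 78 genes and 0.01 over all genes, with 38 higher in cKO (48.7%, against 52.5% of all genes) and 40 lower. Groups did not overlap in 7 of 78 genes (8.97%), against 9.43% of all genes, and the 95% interval lay within 0.5 of 0 on the log2 scale for 29 of the 35 genes with at least 10 FPKM.

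Kcna5, a Kv1 subunit better known from heart and smooth muscle, had the smallest p. Loxp 1 to 4 held 4.38, 1.82, 3.34 and 3.75 CPM, Hetero 1 and 2 held 2.09 and 2.20 CPM, and cKO 1 to 4 held 3.43, 2.94, 3.54 and 5.39 CPM. Both Hetero libraries lay below all cKO libraries, while the Loxp libraries spanned them. The log2 fold change in cKO against Hetero was 0.83 (SE 0.337, edgeR unadjusted p = 0.028; exact permutation p = 0.0667).

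The 7 genes without overlap were Kcna5, Kcnk5, Kcnj14, Kcnv1, Kcnip4, Kcng2 and Kcnh6. Kcnk5 and Kcnj14, both low, were at −1.28 (SE 0.596) and 0.72 (SE 0.335). Kcnv1 was at −0.19 (SE 0.108) and Kcnip4 at −0.17 (SE 0.107), and without cKO 2 they stood at −0.11 and −0.10. Among the others named by p, Kcng2 was at 0.33 (SE 0.228), Kcnu1 at 0.33 (SE 0.245), Kcnk2 at 0.16 (SE 0.108) and Kcnip2 at 0.13 (SE 0.0922) on the higher side. Without cKO 4, Kcnu1 was at 0.22 and Kcnip2 at 0.08. On the lower side Kcnj2 was at −0.29 (SE 0.271) and Kcna6 at −0.12 (SE 0.108), which became −0.09 and −0.07 without cKO 2. Kcnj2 was at −0.48 without cKO 4 and Kcna6 at −0.19 without cKO 3. Kcnj13 was at −1.33 (SE 0.778) and at 0.82 without Hetero 2. As said above, Kcnj13 was tested only because Loxp 3 and Hetero 2 reached the cutoff of the filter.

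Variation between libraries of 1 group was slightly wider for potassium channel genes than for genes at large. The median coefficient of variation was 16.4% over the Loxp libraries and 18.0% over the cKO libraries for the 78 genes, and 13.8% for all tested genes in each group. In cKO against Loxp the median SE of a log2 fold change was 0.15 for the 78 genes and 0.14 for all.

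Genes that work with potassium channels were read from a list of 36, of which 35 were tested. They include the HCN channels, which open on hyperpolarization, sodium pump subunits, chloride transporters, sulfonylurea receptors, and scaffolds of Kv1, Kv2 and Kv4 channels. Neither edgeR, DESeq2 nor limma-voom called any of them in cKO against Loxp, in Hetero against Loxp or in cKO against Hetero. In that order, each tool had 3, 1 and 0 of the list at an unadjusted p under 0.05. Over all genes edgeR had 2.53%, 2.54% and 1.74% at that threshold. The list was chosen with earlier results known, so nothing is read from its counts. By edgeR, 17 genes of the list were higher and 18 lower in cKO than in Loxp. In Hetero against Loxp these were 13 and 22, and in cKO against Hetero 20 and 15. Their median log2 fold changes were −0.00, −0.02 and 0.01 in these comparisons.

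Hcn3 had the smallest p of the list against Loxp in both Cre groups, which share the Loxp libraries. It stood at 17.1, 18.5, 16.7 and 14.8 CPM in Loxp 1 to 4, 22.2 and 23.9 CPM in the 2 Hetero libraries, and 20.6, 25.6, 19.3 and 17.6 CPM in cKO 1 to 4. Both Hetero libraries lay above all Loxp libraries, and cKO 4 lay within the Loxp range. The log2 fold change was 0.46 in Hetero (SE 0.144, edgeR unadjusted p = 0.00695) and 0.31 in cKO (SE 0.119, edgeR unadjusted p = 0.0219), the latter at 0.20 without cKO 2, its highest library.

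The others with small p in cKO against Loxp were Lrrc55, a BK gamma subunit, at −0.27 (SE 0.110), Vapa, a partner of Kv2 channels at the endoplasmic reticulum, at −0.19 (SE 0.0821), and Hcn4 at 0.63 (SE 0.340). Without cKO 2, Hcn4 was at 0.09 and Lrrc55 at −0.17; Hcn4 had 21.1 CPM in cKO 2, 4.77 to 8.87 CPM in the other cKO libraries and 4.95 to 7.99 CPM in Loxp. In Hetero against Loxp they were Kcne1l at 0.52 (SE 0.327), Vapa at −0.16 (SE 0.101) and Lrrc26 at 0.30 (SE 0.237). Kcne1l was at 0.29 without Hetero 2, and Lrrc26 at 0.12 without Hetero 1, at 0.14 without Loxp 1 and at 0.47 without the library labelled Loxp 4. In cKO against Hetero they included the sodium pump subunit Atp1b2 at 0.12 (SE 0.102), Lrrc55 at −0.17 (SE 0.135) and the Kv4 partner Dpp6 at 0.10 (SE 0.0955). Without cKO 2 these 3 were at 0.06, −0.08 and 0.05. None passed the adjusted threshold.

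In the genome 28 of the 92 genes have exons that overlap another gene (GENCODE M21), 26 of them on the opposite strand. The overlapping gene was at least as high in CPM for 3 of them: Kcnq1 with Kcnq1ot1 (1.66 and 6.91 CPM), Kcnj13 with Gigyf2 (0.336 and 77.3 CPM) and Kcne3 with Gm34821 (0.110 and 0.192 CPM). Values of these 3 genes are uncertain where reads could have been shared. Clusters of related genes did not share a level. On chromosome 3, Kcna3, Kcna2 and Kcna10 lie in a row with 5.60, 23.2 and 0.0292 FPKM, and on chromosome 6, Kcna5, Kcna1 and Kcna6 with 1.14, 18.0 and 12.6 FPKM.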

How the data were processed

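RNA of S1BF was sequenced in 10 libraries, extracted with Trizol and prepared with the NEBNext Ultra kit, per the labels. The authors deposited read counts per gene, for which the submitters' processing notes name featureCounts 1.5.0-p3 and mm10. The authors also deposited FPKM per gene, and a table of their comparisons of each Cre group with Loxp (log2 fold change, p-value and adjusted p-value). Not given in the sources used here are the aligner, the annotation, the strand setting and the tool of those comparisons.

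Genes were fitted with edgeR 4.0.16 in R 4.3.3 on the deposited counts (TMM, filterByExpr at its defaults, glmQLFit, glmQLFTest), with all 10 libraries and a mean per group. Of 52636 genes, 32197 had a count and 18455 were tested, with Benjamini-Hochberg adjustment over all of them and a threshold of 0.05. All adjusted p-values are edgeR's unless another tool is named, and edgeR p-values of single genes are from this fit. The common biological coefficient of variation was 14.9%. Intervals use the fitted SE and a t quantile. Exact two-sided permutation tests enumerated the 70 arrangements of 4 against 4 libraries or the 15 of 4 against 2, on log2 CPM with a prior count of 2. On simulated data with 200 genes changed, 2-fold changes were called in 82%, 72% and 65% and 3-fold changes in 98%, 94% and 92% of cases. These rates are for cKO against Loxp, for Hetero against Loxp and for cKO against Hetero, over 18455 genes each. The changed genes, 100 per fold, were drawn from those with a mean above 1 CPM, so the rates do not cover lower genes. Each gene was simulated with its fitted spread, and no library was made to stand apart as cKO 2 does.

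The family, the partner list, the marker lists and the rule for naming genes were chosen with earlier results of these data known. Named genes are the 2 with the highest FPKM in each family, the 6 higher and 6 lower with the smallest p in each comparison, those called by any tool or by the authors, 10 genes known for restricted cell types, and the 4 partners with the smallest p. Some genes that this rule covers are not reported here. Genes named for a low total, a motif or an overlap, Kcns1 as the end of a range, and genes with an extreme value in cKO 2, were chosen after their values were seen. Protein sequences were not used, and coding DNA is shown in their place. Alternatives were edgeR with DESeq2 size factors, edgeR with no scaling beyond library size, edgeR without a low-count filter or with at least 1 CPM in 4 libraries, a fit of the 2 compared groups alone, a block for the replicate number, DESeq2 1.42.0, limma-voom (limma 3.58.1), and leaving out each library. A left-out library leaves Hetero with 1 library, which is then assumed to vary like the others.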

Additional observations from a re-analysis of the deposited data

Results flagged for a closer look

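In 100 groups of 4 libraries (the Loxp and the cKO libraries of 50 named potassium channel genes), 14 had a library far from the other 3. Chance flags about 1 in 20 independent groups. These groups share their libraries, and many of the genes were named for small p in these data, so that rate is no yardstick for the 14. In 7 of the 14 the library far from the others was cKO 2. It was low for Kcna1 (42.5 CPM, next 99.2), Kcnh1 (90.1 CPM, next 135), Kcnip3 (112 CPM, next 134) and Kcns2 (17.0 CPM, next 24.6), and high for Kcnc4 (167 CPM, next 135), Kcnj16 (25.7 CPM, next 18.8) and Kcnj8 (8.21 CPM, next 4.32). The other cKO library was cKO 4, low for Kcna3 (8.53 CPM, next 12.8).

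Among Loxp libraries, Loxp 1 was low for Kcnma1 (204 CPM, next 272). Loxp 3 was high for Kcnj13 (0.550 CPM, next 0.160), Kcnk5 (0.983 CPM, next 0.399) and Kcnmb2 (2.99 CPM, next 2.47). The library labelled Loxp 4 was low for Kcna6 (70.2 CPM, next 82.0) and high for Kcnt1 (244 CPM, next 177). Their causes were not tested.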

How the results depend on the processing

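Of 714 values of 49 fold changes under the alternatives, 707 kept their direction and side of the threshold, and 7 changed direction. In cKO against Loxp these were Kcnab3 without cKO 2 (0.18) and without Loxp 4 (0.14), with left-out values from −0.43 to 0.18, and Kcna1 without cKO 2 (0.18), Loxp 3 (0.07) and Loxp 4 (0.12), with left-out values from −0.17 to 0.18. The 2 others were Kcnj13 without Hetero 2, at −0.58 in Hetero against Loxp and 0.82 in cKO against Hetero, and its values with 1 library left out ran from −0.58 to 2.36 and from −2.13 to 0.82. The number of potassium channel genes called was 0 in cKO against Loxp under every alternative run. With no low-count filter it was 1 in Hetero against Loxp and 1 in cKO against Hetero, and without Hetero 1 it was 1 in Hetero against Loxp (0 to 1 over the left-out libraries), each time Kcne2.

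Over all genes, edgeR called 32, 68 and 39 with no low-count filter in the 3 comparisons (cKO with Loxp, Hetero with Loxp, cKO with Hetero), and DESeq2 0, 11 and 3, against 0 in each. Without Hetero 1, edgeR called 15 in Hetero against Loxp and 14 in cKO against Hetero; without cKO 2 it called 1 in cKO against Loxp. A block for the replicate number gave 1, 1 and 0 genes and 0 potassium channel genes, with 6, 4 and 2 of these at an unadjusted p under 0.05. The share of all genes at that threshold was not counted under the block, so nothing is read from these counts. Under the block the median log2 fold change of the potassium channel genes was −0.01, 0.05 and −0.11, against −0.0002, −0.0019 and 0.0014 over all genes. In cKO against Hetero it thus moved from −0.00 in the main fit to −0.11. That move exceeds 0.0876, the SD of the median level of these genes over the Loxp libraries. Deviations from the group means of same-numbered Loxp and cKO libraries correlated at 0.095, 0.199, 0.042 and 0.322 for numbers 1 to 4. Each Loxp library correlated best with the cKO library of its own number, and the other Loxp and cKO pairs lay at −0.23 to 0.035. Same-numbered pairs with a Hetero library lay at −0.026 to 0.023. Whether libraries of 1 number belong together was not tested, and the main fit has no block for the number. Low counts limit Kcne2, Kcnj13, Kcnh8 and Kcnk5.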
